A study of Homo sapiens with 8 samples.

Results

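The CDK inhibitor genes described here were CDKN1A, CDKN1B, CDKN1C, CDKN2C, CDKN2D and CDKN3, chosen by name as 6 of the 18955 genes of a single-cell RNA count table. The 5738 cells of the table, in 8 libraries, were all labelled SUM159, a human cell line derived from a triple-negative breast tumour. Before selection the cells had received a lentiviral library of DNA barcodes, so all libraries share that vector. The parental library, called pre-treatment, had 602 cells and no drug. In a first experiment cells were passaged in DMSO vehicle (459 cells), 0.6 nM paclitaxel (752), 100 nM JQ1 (697, called JQ1-A) or 100 nM JQ1 with 0.6 nM paclitaxel (643). In a second experiment, which had no vehicle library, they were passaged in 160 nM palbociclib (693), 100 nM JQ1 (868, called JQ1-B) or 100 nM JQ1 with 160 nM palbociclib (1024). Selection lasted up to 18 passages. JQ1 inhibits the BET bromodomain readers of acetylated chromatin, palbociclib inhibits CDK4 and CDK6, and paclitaxel keeps microtubules from disassembling.

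Each library pooled the cultures of a treatment, and a JQ1+palbociclib culture had died out, so every treatment within an experiment was 1 sample. P-values below measure the spread between libraries of different treatment and experiment, and what a library owes to its drug and what to its own selection history cannot be told apart. Libraries held between 10621159 (DMSO) and 24240835 (JQ1+palbociclib) UMIs, which are counted molecules, and the mean per cell was 22305 to 24171. VIM (3279 to 4502 CPM, the count scaled to a common library total) and CD44 (228 to 437 CPM), which mark mesenchymal breast cancer lines, were expressed in all 8 libraries, while the hormone receptor genes ESR1 and PGR and the leukocyte gene PTPRC were at 0 to 0.471 CPM. PECAM1 and ALB, markers of endothelium and hepatocytes, had no row in the table. Cell barcode sequences found in more than 1 library numbered 13, carried by 26 cells.

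CDK inhibitors hold the cell cycle back by binding cyclin-dependent kinases or their cyclins. The CIP/KIP proteins p21 (CDKN1A), p27 (CDKN1B) and p57 (CDKN1C) bind cyclin-CDK complexes, chiefly those of CDK2. The INK4 proteins p18 (CDKN2C) and p19 (CDKN2D) bind the monomers CDK4 and CDK6, the targets of palbociclib. CDKN3 encodes a phosphatase that removes the activating phosphate from CDK2 and CDK1. Its transcript is known as a marker of dividing cells. CDKN1A is known for rising after DNA damage, and p27 is mainly set by protein turnover, which RNA counts do not show.

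On GRCh37, the assembly the reads were aligned to, CDKN1A (ENSG00000124762) lies at chr6:36644237-36655114 on the plus strand, CDKN1B (ENSG00000111276) at chr12:12838432-12875303 plus, CDKN1C (ENSG00000129757) at chr11:2904443-2907005 minus, CDKN2C (ENSG00000123080) at chr1:51426417-51440306 plus, CDKN2D (ENSG00000129355) at chr19:10677136-10679735 minus and CDKN3 (ENSG00000100526) at chr14:54863567-54886936 plus. All 6 are protein coding. DINOL, GPR19 and an unnamed gene, ENSG00000290102, overlap CDKN1A, CDKN1B and CDKN2C on the opposite strand. The counts do not show where in a gene a UMI came from, since only its 3′ end was sequenced.

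Promoters are shown for CDKN1A, the member that rose with JQ1, and for CDKN2D and CDKN3, whose levels differed most between phases of the cell cycle. These are the 250 bases before the annotated start in RefSeq on GRCh38.p14, at chr6:36678464-36678713 plus, chr19:10568980-10569229 minus and chr14:54396757-54397006 plus, read 5′ to 3′. Capitals mark the CCAAT box, the TTTGAA motif and the GGGCGG motif, searched on both strands.
CDKN1A: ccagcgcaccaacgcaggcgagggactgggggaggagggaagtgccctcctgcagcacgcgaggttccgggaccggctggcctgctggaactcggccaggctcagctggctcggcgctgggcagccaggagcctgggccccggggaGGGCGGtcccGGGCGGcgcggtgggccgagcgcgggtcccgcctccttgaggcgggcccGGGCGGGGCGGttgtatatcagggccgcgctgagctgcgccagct
CDKN2D: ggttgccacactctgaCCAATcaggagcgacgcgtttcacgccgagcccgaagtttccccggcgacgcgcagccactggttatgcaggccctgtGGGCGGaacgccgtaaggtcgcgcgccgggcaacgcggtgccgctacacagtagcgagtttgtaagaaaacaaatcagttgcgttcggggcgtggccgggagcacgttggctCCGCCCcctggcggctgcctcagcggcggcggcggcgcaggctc
CDKN3: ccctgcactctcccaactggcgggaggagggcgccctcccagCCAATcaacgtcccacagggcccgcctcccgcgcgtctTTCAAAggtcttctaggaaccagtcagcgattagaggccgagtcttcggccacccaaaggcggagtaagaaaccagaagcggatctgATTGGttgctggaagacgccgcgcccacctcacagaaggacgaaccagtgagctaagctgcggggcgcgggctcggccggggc
CDKN1A held GGGCGG, the core of a GC box, at 4 places, of which the last pair share 1 base, and neither of the other motifs. CDKN2D held CCAAT once and GGGCGG at 2 places. CDKN3 held CCAAT at 2 places, 1 on each strand, and TTTGAA, the core of a cell cycle homology region, once on the minus strand. Of 35116 promoter windows of this length, 32.0% held CCAAT, 13.3% held TTTGAA and 42.6% held GGGCGG. The E-box CACGTG (in 6.34% of all windows), the TATA box TATAAA (10.7%) and the E2F sites TTTCCCGC (1.39%) and TTTGGCGC (0.550%) were in none of these 3 windows. CDKN1B held CCAAT at 2 places and GGGCGG once, and CDKN2C had 3 annotated starts, of which 1 held CCAAT, 2 held GGGCGG and 2 held CACGTG. In all, 5 of the 6 members had a promoter in the table. A match is a description of the letters and not evidence that a factor binds there.

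CDKN1A was higher in every library that had been exposed to JQ1. It stood at 25.0 CPM in pre-treatment, 31.3 in DMSO, 16.2 in paclitaxel and 32.3 in palbociclib. With JQ1 it stood at 51.2 in JQ1-A, 54.7 in JQ1-B, 43.5 in JQ1+paclitaxel and 38.7 in JQ1+palbociclib. The lowest JQ1 library was above the highest library without JQ1, so the groups did not overlap, and the paclitaxel library was the lowest of all. The mean was 47.0 ± 7.24 CPM with JQ1 (SD, n = 4 libraries) and 26.2 ± 7.40 without (n = 4). In a model with JQ1, palbociclib and paclitaxel as additive terms, fitted on UMI sums of 9288 genes with edgeR's quasi-likelihood test, CDKN1A rose with JQ1 by 1.07 ± 0.20 on the log2 scale (± SE, with adjusted p = 0.0059). With a replicate block of 3 pairs matched by partner drug the edgeR value was 0.98 ± 0.27 (adjusted p = 0.077), which did not pass. Called genes had an adjusted p under 0.05 (Benjamini-Hochberg).

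CDKN3, the phosphatase gene, fell with both JQ1 and palbociclib. It stood at 230.2 CPM in pre-treatment, 268 in DMSO and 232 in paclitaxel, but at 134 in palbociclib. With JQ1 it stood at 174 in JQ1-A, 169 in JQ1-B, 159 in JQ1+paclitaxel and 106 in JQ1+palbociclib. The groups with and without JQ1 overlapped because of the palbociclib library alone, and both palbociclib libraries lay below the other 6. CDKN3 fell by 0.29 ± 0.09 on the log2 scale with JQ1 (edgeR, adjusted p = 0.028) and by 0.74 ± 0.11 with palbociclib (adjusted p = 0.043). The JQ1 call was lost when any 1 of 5 libraries was left out (pre-treatment, DMSO, palbociclib, JQ1-A or JQ1-B, with log2 fold changes of -0.33 to -0.25 and adjusted p from 0.051 to 0.10 in edgeR). The palbociclib call was lost without any of the same 5 libraries, at log2 fold changes of -0.78 to -0.70 (edgeR, adjusted p 0.12 to 0.21). With the replicate block the JQ1 call was also lost (-0.31 ± 0.13, edgeR adjusted p = 0.18).

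CDKN2D and CDKN2C, the INK4 members, were not called for any drug. CDKN2D stood at 48.9 CPM in pre-treatment, 56.6 in DMSO, 41.2 in paclitaxel and 39.1 in palbociclib, and at 50.4, 50.9, 43.8 and 40.3 in JQ1-A, JQ1-B, JQ1+paclitaxel and JQ1+palbociclib. CDKN2C stood at 30.3, 34.8, 36.8 and 29.8 CPM in pre-treatment, DMSO, paclitaxel and palbociclib, and at 35.8, 32.1, 34.9 and 20.6 in JQ1-A, JQ1-B, JQ1+paclitaxel and JQ1+palbociclib. Both were lowest in the libraries that held palbociclib, which did not overlap with the other 6 for either gene. The fitted palbociclib difference was -0.33 ± 0.12 for CDKN2D (adjusted p = 0.16) and -0.36 ± 0.19 for CDKN2C (adjusted p = 0.29), so neither passed the test. The CDKN2C value rested on JQ1+palbociclib, being -0.0037 without that library and -0.75 without palbociclib. The JQ1 difference was 0.20 ± 0.10 (adjusted p = 0.14) for CDKN2D and 0.08 ± 0.15 (adjusted p = 0.70) for CDKN2C.

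CDKN1B, the p27 gene, was close to level across the libraries, from 4.33 CPM in DMSO to 5.62 in palbociclib, with JQ1 libraries between 4.38 and 5.30. Its 46 to 107 UMIs per library gave 95% Poisson intervals that overlapped in every pair of libraries. The JQ1 difference was 0.10 ± 0.18 (adjusted p = 0.69), the palbociclib difference 0.12 ± 0.21 (adjusted p = 0.77) and the paclitaxel difference 0.16 ± 0.22 (adjusted p = 0.92).

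CDKN1C, the p57 gene, did not pass the filter of at least 5 CPM in at least 2 libraries, so 5 of the 6 members were tested. It had 77 UMIs in JQ1+paclitaxel, or 5.37 CPM (95% Poisson interval 4.24 to 6.71), and 6 in JQ1+palbociclib, or 0.248 CPM (0.0908 to 0.539). The other 6 libraries had 12 to 33 UMIs and 0.660 to 1.63 CPM. JQ1+paclitaxel stood above all others and JQ1+palbociclib below them, each as a single library with no replicate. In JQ1+paclitaxel the UMIs came from 44 of 643 cells.

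**Figure D1:**
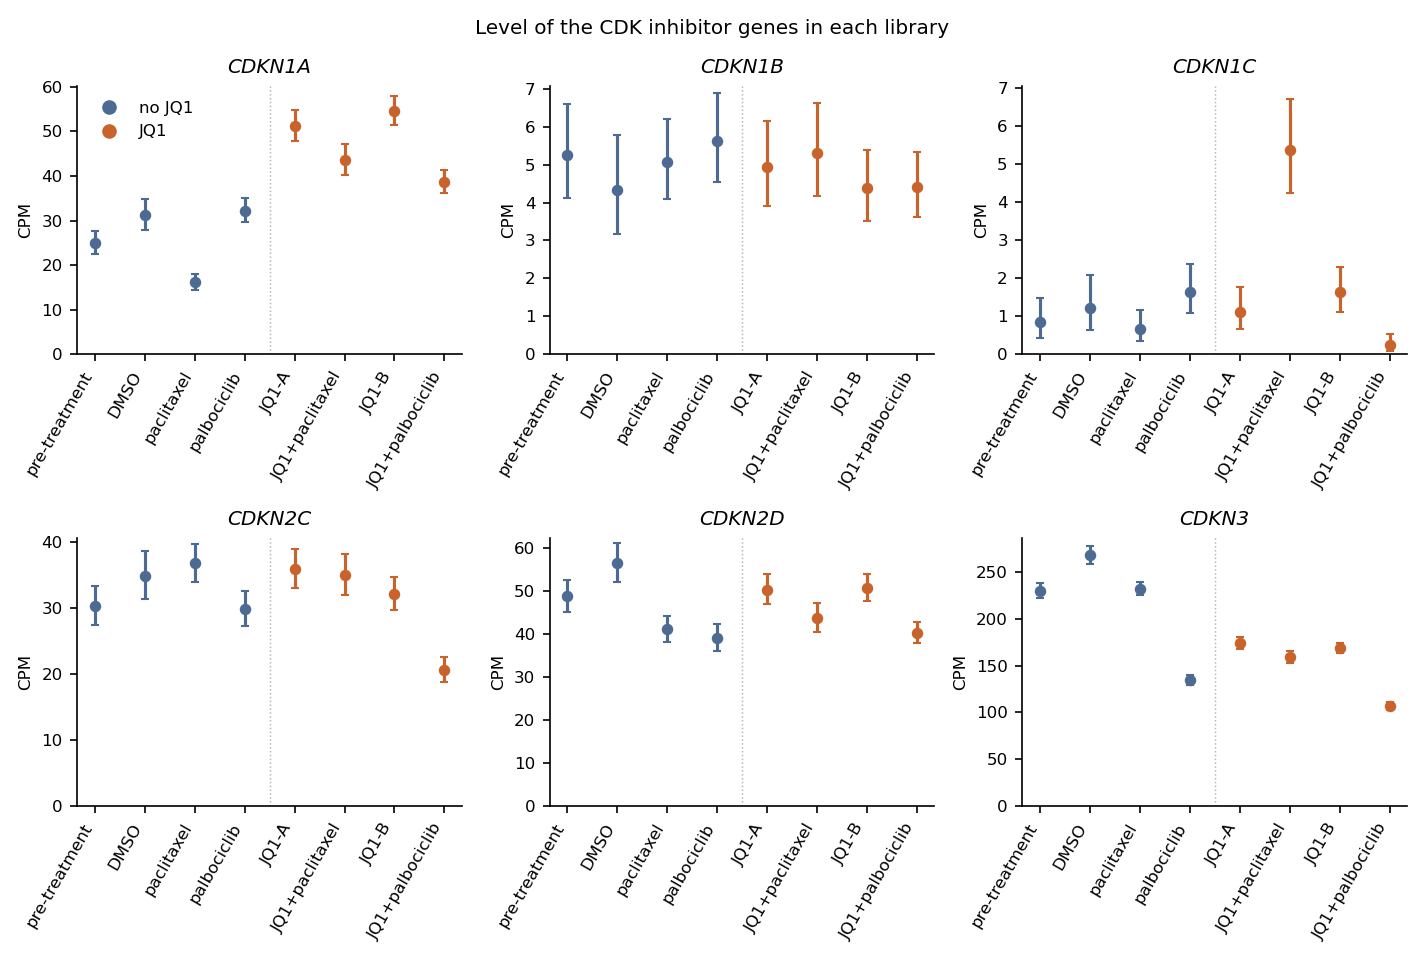
Level of each CDK inhibitor gene (CPM, linear axes from 0) in the 8 libraries, with exact 95% Poisson intervals that cover counting error only; blue points had no JQ1, orange points did. CDKN1A was between 38.7 and 54.7 CPM with JQ1 and between 16.2 and 32.3 without, CDKN3 was lowest in the libraries that held palbociclib, and CDKN1C stood out in JQ1+paclitaxel.

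Across all 9288 tested genes JQ1 calls were frequent, and the members' calls have to be read beside them: 17.8% of genes were called higher, 19.7% lower, and in 28.2% the libraries with and without JQ1 did not overlap. Of the 5 tested members 1 was called higher, 1 lower, and 1 did not overlap, CDKN1A. Palbociclib calls covered 0.280% of genes in either direction (26 genes), with CDKN3 among them. That count depends on the fit, at 515 in DESeq2, 482, 497 and 938 in edgeR without paclitaxel, JQ1+paclitaxel or JQ1+palbociclib, and 0 with the experiment as a term. Palbociclib libraries did not overlap with the others in 14.4% of genes and in 3 of the 5 tested members (CDKN2C, CDKN2D and CDKN3). Paclitaxel exposure gave 0 calls (0% of genes) in edgeR, with 395 genes at an unadjusted p under 0.05 and 9 calls in DESeq2, and the CDKN1A value of -0.47 ± 0.25 (adjusted p = 0.88) did not pass. It was -0.94 without JQ1+paclitaxel (edgeR, adjusted p = 0.12) and -0.10 without paclitaxel (adjusted p = 0.99).

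The fold changes depend on the scaling. TMM factors, which correct library totals for composition, were 0.902 to 0.965 in the JQ1 libraries and higher, up to 1.10, in the others, and without them the median of all tested genes moved from 0.00 to -0.20 for JQ1. On that scale CDKN1A was at 0.88 ± 0.18 (adjusted p = 0.0069) and CDKN3 at -0.49 ± 0.10 (adjusted p = 0.0059), and the values of CDKN1B and CDKN2C changed sign. The direction of CDKN1A and CDKN3 was the same on both scales.

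**Figure D2:**
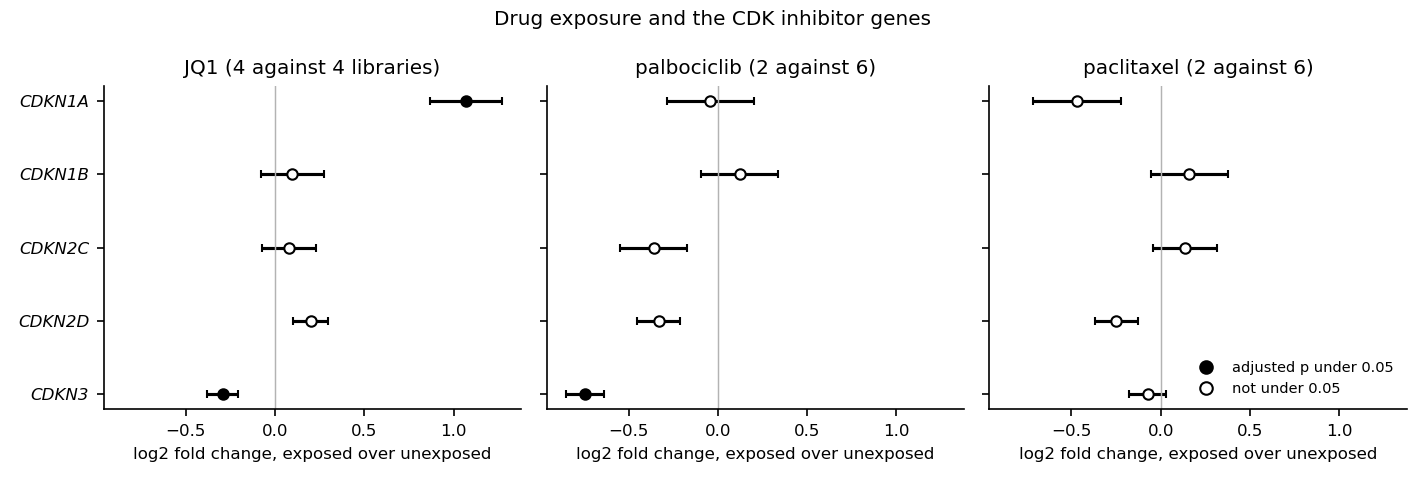
Log2 fold change of the 5 tested members for exposure to JQ1, palbociclib and paclitaxel (x axis, exposed over unexposed libraries) with standard errors as bars; filled points had an adjusted p under 0.05. CDKN1A (1.07) and CDKN3 (-0.29) are filled for JQ1, CDKN3 (-0.74) for palbociclib and no gene for paclitaxel.

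Whether the drugs together moved a member by another amount than their single effects add up to was tested as an interaction, with 2 residual degrees of freedom. No member was called. CDKN1A had a JQ1 by palbociclib term of -0.83 ± 0.23 (unadjusted p = 0.0048, adjusted p = 0.16) and a JQ1 by paclitaxel term of 0.55 ± 0.24 (adjusted p = 0.28), and CDKN2C a JQ1 by palbociclib term of -0.77 ± 0.23 (adjusted p = 0.17). The other terms were between -0.47 and 0.19 (adjusted p 0.56 to 0.97). Of all genes, 0.0108% were called for the JQ1 by palbociclib interaction and 0.388% for the JQ1 by paclitaxel interaction. An unadjusted edgeR p under 0.05 was frequent, in 1580 of the 9288 genes for the JQ1 by palbociclib term.

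Between single libraries no test is possible, and ratios of CPM carry 95% exact intervals for counting error only. JQ1+palbociclib over JQ1-B was 0.708 (0.648 to 0.773) for CDKN1A, 0.643 (0.571 to 0.724) for CDKN2C, 0.793 (0.726 to 0.866) for CDKN2D and 0.631 (0.599 to 0.664) for CDKN3. For CDKN1B it was 1.01 (0.753 to 1.35). Over palbociclib alone, JQ1+palbociclib had a ratio of 1.20 (1.08 to 1.34) for CDKN1A, 0.693 (0.610 to 0.786) for CDKN2C and 0.791 (0.747 to 0.838) for CDKN3. JQ1+paclitaxel over paclitaxel was 2.69 (2.34 to 3.10) for CDKN1A and 0.686 (0.652 to 0.722) for CDKN3, while over JQ1-A it was 0.850 (0.765 to 0.945) and 0.912 (0.863 to 0.964). Libraries of equal exposure give the scale: JQ1-A over JQ1-B was 0.936 (0.854 to 1.02) for CDKN1A and 1.03 (0.984 to 1.09) for CDKN3, but DMSO over pre-treatment was 1.25 (1.07 to 1.46) and 1.16 (1.11 to 1.22). For CDKN2C and CDKN2D, JQ1-A over JQ1-B was 1.12 and 0.990, and DMSO over pre-treatment was 1.15 and 1.16. The CDKN1A ratio of JQ1+palbociclib over palbociclib, at 1.20, was thus no larger than that of DMSO over pre-treatment.

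In single cells the share with a CDKN1A UMI was higher in each JQ1 library than in any library without JQ1. Each cell was thinned to 10000 UMIs, which kept 5487 cells, and the share of thinned cells with at least 1 CDKN1A UMI was 36.8% in JQ1-A, 41.6% in JQ1-B, 33.3% in JQ1+paclitaxel and 28.0% in JQ1+palbociclib. Without JQ1 it was 19.6% in pre-treatment, 26.5% in DMSO, 13.1% in paclitaxel and 25.5% in palbociclib. The groups did not overlap, and the means were 34.9 ± 5.73% and 21.2 ± 6.19% (SD, n = 4 each). By CPM 28.2% of tested genes did not overlap, and for the share of cells this was not computed over all genes. The shares come from the same UMIs as the CPM values. An exact two-sided permutation test gave p = 0.029, the smallest that 4 against 4 libraries allow, and an adjusted p of 0.17 over the 6 members. No cell type in these libraries should lack the gene, so no background share was available. Unthinned, the share was 49.5% to 64.1% with JQ1 and at most 46.4% without.

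CDKN1A UMIs were spread over many cells. A single cell held at most 5 to 22 of them, and the tenth of cells with the most UMIs held 35.3% (JQ1-B) to 56.5% (paclitaxel) of the UMIs. Excess variation between cells (the squared coefficient of variation less that of counting noise) was 0.464 to 1.22 with JQ1 and 0.531 to 1.62 without (exact permutation p = 0.57, n = 4 libraries each).

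CDKN3 was found in 61.4%, 65.8%, 56.3% and 53.7% of thinned cells in JQ1-A, JQ1-B, JQ1+paclitaxel and JQ1+palbociclib. It was found in 80.4%, 87.4%, 87.4% and 59.2% in pre-treatment, DMSO, paclitaxel and palbociclib. Palbociclib again fell among the JQ1 libraries (exact permutation p = 0.086 over n = 4 against 4, adjusted p = 0.26). Its excess variation between cells was 0.597 to 0.807 with JQ1, and without JQ1 it was 0.300 in pre-treatment, 0.150 in DMSO, 0.102 in paclitaxel and 0.621 in palbociclib. The means were 0.735 ± 0.0988 and 0.293 ± 0.234 (exact permutation p = 0.057, adjusted p = 0.23 over 4 members with enough UMIs). That difference did not pass.

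Shares of the other members overlapped between libraries with and without JQ1, though those of CDKN2C and CDKN1C differed between single libraries. CDKN2D was found in 25.7% (palbociclib) to 37.2% (JQ1-B) of thinned cells and CDKN2C in 17.2% (JQ1+palbociclib) to 31.0% (paclitaxel). CDKN1B was found in 3.96% to 4.80% and CDKN1C in 0.103% (JQ1+palbociclib) to 3.63% (JQ1+paclitaxel). For these genes the exact permutation p of JQ1 against no JQ1 (n = 4 each) was 0.40 to 0.77.

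**Figure D3:**
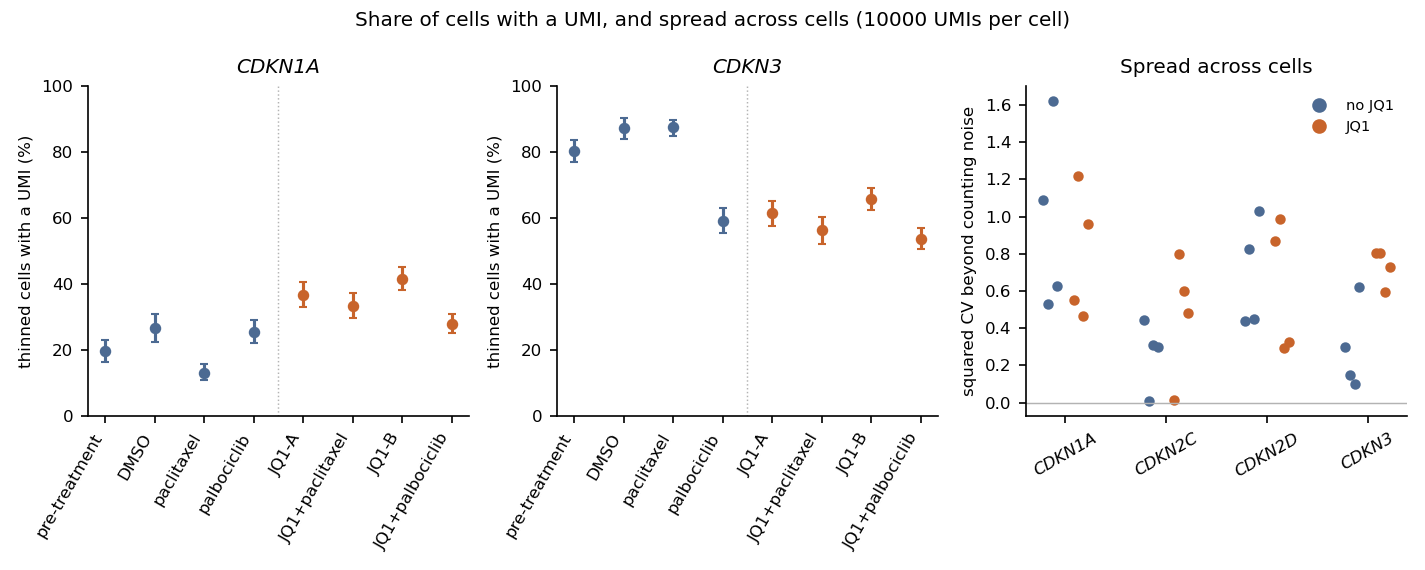
Percent of thinned cells with at least 1 UMI of CDKN1A and of CDKN3 in each library with exact 95% binomial intervals, and, at right, the excess variation between cells of 4 members, as a squared coefficient of variation (1 point per library, no unit). With JQ1 (orange), CDKN1A was found in 28.0% to 41.6% of cells against 13.1% to 26.5% without (blue), and the CDKN3 points of palbociclib lie with those of the JQ1 libraries.

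Shares of cells called in each phase of the cell cycle differed between the libraries and stand beside these values. Of the thinned cells, 43.4% to 52.7% were called G1 in the JQ1 libraries and 62.4% in palbociclib, against 24.7% in pre-treatment, 23.4% in DMSO and 3.55% (26 cells) in paclitaxel. With phases called inside each library the G1 shares lay closer together, at 41.7% to 47.4% in the JQ1 libraries and 50.5% in palbociclib, against 32.4%, 36.4% and 22.3% in pre-treatment, DMSO and paclitaxel. Phases came from Seurat's S and G2/M gene lists, which hold none of the 6 members. The part of these shares in the JQ1 and palbociclib results over all cells was not tested directly, and the values within phases follow.

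CDKN2D, CDKN3 and CDKN2C were higher in G2/M than in G1 cells in all 8 libraries. In DMSO, CDKN2D stood at 23.1 CPM in G1, 42.4 in S and 83.5 in G2/M, and in JQ1-A at 24.1, 58.8 and 82.9. CDKN3 in DMSO stood at 199, 249 and 322 CPM, and in JQ1-A at 86.7, 140.4 and 305. CDKN2C in DMSO stood at 24.0, 28.2 and 43.3 CPM. The mean log2 ratio of G2/M over G1, with 1 CPM added, was 1.39 ± 0.45 for CDKN2D, 1.28 ± 0.46 for CDKN3 and 0.96 ± 0.28 for CDKN2C (SD, n = 8 libraries). Each had p = 0.0078 in an exact sign-flip permutation test, the smallest that 8 libraries allow, and an adjusted p of 0.019 over 12 tests. In paclitaxel, where 26 cells were called G1, the G1 values rested on 8 UMIs each of CDKN2D and CDKN2C. Paclitaxel log2 ratios of G2/M over G1 were 0.44 for CDKN2D and 0.47 for CDKN2C. With phases called inside each library they were 0.05 and 0.10. S over G1 was also higher in 8 of 8 libraries for CDKN2D (0.83 ± 0.27) and CDKN2C (0.41 ± 0.13, both adjusted p = 0.019 by exact permutation), and in 6 of 8 for CDKN3 (0.38 ± 0.38, adjusted p = 0.080). Doublets were not called, and their part in the phase values was not tested.

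No CIP/KIP member passed this test. CDKN1A had a mean log2 ratio of G2/M over G1 of -0.08 ± 0.44, with 3 of 8 libraries above 0 (exact permutation, adjusted p = 0.68), and S over G1 of -0.08 ± 0.34 (adjusted p = 0.68). CDKN1B was higher in G2/M in 7 of 8 libraries (0.77 ± 0.72, exact permutation adjusted p = 0.078), from 2 to 18 UMIs a phase. CDKN1C had 0 to 25 UMIs a phase, with a ratio of -0.49 ± 1.16 (adjusted p = 0.38, exact permutation). In JQ1+paclitaxel 25 of the 30 thinned CDKN1C UMIs were in G1 cells.

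**Figure D4:**
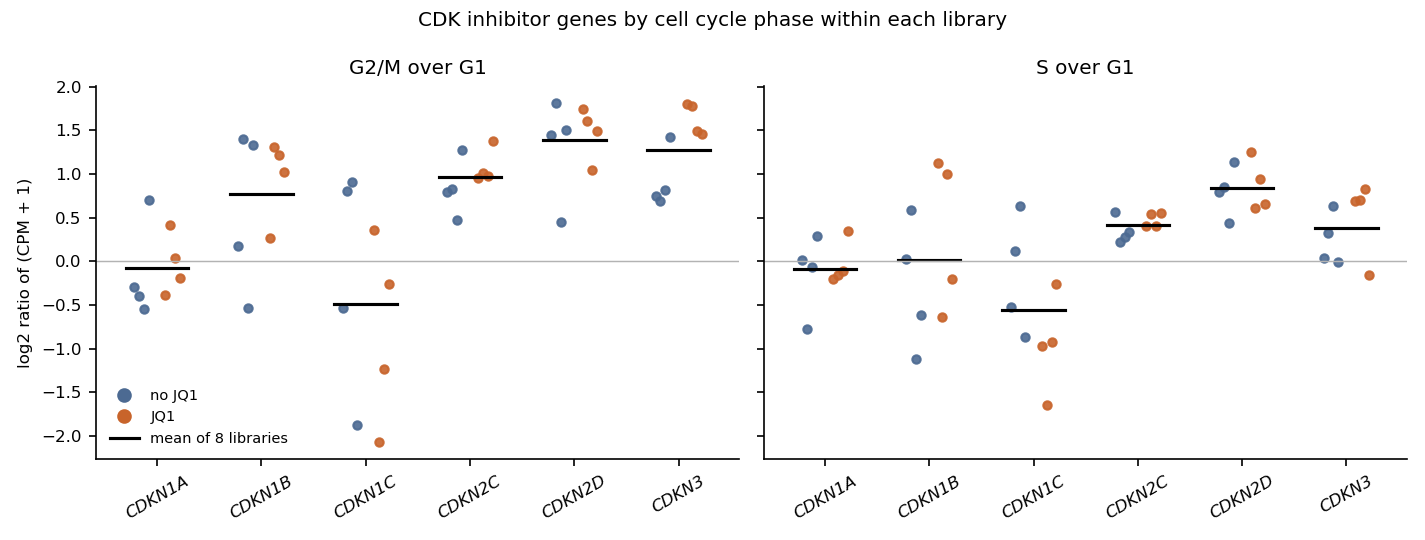
Log2 ratio of (CPM + 1) of G2/M over G1 cells (left) and S over G1 cells (right) for each member, 1 point per library (blue without JQ1, orange with JQ1) and a black line at the mean of 8 libraries. All 8 points of CDKN2C, CDKN2D and CDKN3 lie above 0 at left, while CDKN1A lies around 0.

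Within phases, as called across all libraries, CDKN1A was also called higher with JQ1. Its JQ1 log2 fold change was 0.82 ± 0.20 in G1 cells (edgeR, adjusted p = 0.020), 1.01 ± 0.15 in S cells (adjusted p = 0.00056) and 1.05 ± 0.30 in G2/M cells (adjusted p = 0.024). For CDKN3 the values were -0.50 ± 0.15 in G1 cells (adjusted p = 0.039) and -0.42 ± 0.11 in S cells (adjusted p = 0.016), but 0.09 ± 0.11 in G2/M cells (adjusted p = 0.59). The paclitaxel library entered the G1 fit with 26 cells, which held 5 CDKN1A UMIs after thinning. These fits were not repeated with phases called inside each library. JQ1 calls covered 17.0% of genes in G1 cells, 29.6% in S cells and 27.7% in G2/M cells. CDKN2C and CDKN2D were called in none of the 3 phases (edgeR, adjusted p 0.067 to 0.34).

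The CDKN3 contrast between phases was compared directly in a test chosen after these values were seen. The log2 ratio of G2/M over G1 was 1.80 in JQ1-A, 1.49 in JQ1-B, 1.78 in JQ1+paclitaxel and 1.45 in JQ1+palbociclib, and 0.74, 0.69, 0.81 and 1.42 in pre-treatment, DMSO, paclitaxel and palbociclib. The JQ1 libraries were all above the others, with palbociclib next to them. How many of all genes separate in this ratio was not computed. The difference of the means was 0.72 (exact permutation p = 0.029 over n = 4 against 4, adjusted p = 0.17 over the 6 members). That p is the smallest that 4 against 4 libraries allow. After adjustment the difference could not pass unless several members reached it. With phases called inside each library the groups overlapped, since palbociclib then stood at 1.57 and JQ1-B and JQ1+palbociclib at 1.56.

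Genes around the members were counted from lists chosen with earlier results of these data known, 71 genes in all, which were all in the table and of which 63 passed the filter. These counts stand beside 17.8% of all tested genes called higher and 19.7% called lower for JQ1, and the medians beside a median of 0.00. Among the CDK and cyclin partners, 0 of 12 tested genes rose and 5 fell with JQ1 (median log2 fold change -0.44). CCNB1, the mitotic cyclin B1, fell by 0.91 ± 0.13 on the log2 scale, from 195.7 ± 64.6 to 86.8 ± 10.0 CPM (SD, n = 4 libraries each), and CCNB2 fell by 0.53 ± 0.14, with no overlap between libraries in either. CDK4, a palbociclib target, fell by 0.43 ± 0.14 (adjusted p = 0.039), with the palbociclib library at 139 CPM among the JQ1 libraries (118 to 142). CDK2, CDK6, CCND1, CCNE1 and CCNE2 had values of -0.36, 0.03, 0.52, -0.45 and -0.09 that did not pass. CCND1 was called for the JQ1 by paclitaxel interaction at -1.28 ± 0.20, with paclitaxel and JQ1+paclitaxel as single libraries. It stood at 181 CPM in DMSO and 253 in JQ1-A, but at 349 in paclitaxel and 204 in JQ1+paclitaxel.

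Of the RB and E2F list, 1 of 9 tested genes rose and 1 fell (median 0.01). RB1, the target of CDK4 and CDK6, rose by 0.73 ± 0.14 (adjusted p = 0.0056), from 8.96 ± 0.797 to 13.0 ± 0.605 CPM, with no overlap between the groups. TFDP1, the partner of E2F proteins, fell by 0.50 ± 0.09, with the palbociclib library at 149 CPM among the JQ1 libraries (99.6 to 177).

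Of the genes that set the turnover of p21 and p27 proteins, 2 of 15 rose and 3 fell (median -0.19), near the 17.8% and 19.7% of all genes. SKP2, which marks p27 for degradation, fell by 0.45 ± 0.14 (adjusted p = 0.035), from 48.0 ± 14.0 to 29.8 ± 1.66 CPM, with the palbociclib library at 30.1 among those with JQ1. CUL4A, a ubiquitin ligase scaffold, fell by 0.37 ± 0.09 with no overlap. CKS1B and DTL, partners in the turnover of p27 and p21, had values of -0.19 ± 0.11 and -0.30 ± 0.19 that did not pass. The 2 genes called higher were FBXW7 (0.59 ± 0.16, adjusted p = 0.023 in edgeR) and DDB1 (0.37 ± 0.10, adjusted p = 0.019). For both, libraries with and without JQ1 overlapped.

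Of regulators of transcription of the members, 4 of 19 rose and 3 fell (median 0.04), also near the shares over all genes. MYC, which represses CDKN1A in many cells, rose by 0.81 ± 0.19 (adjusted p = 0.013), with the palbociclib library at 503 CPM among the JQ1 libraries (401 to 604). SMAD4 (0.53 ± 0.14) and SP3 (0.51 ± 0.11) rose, and the histone deacetylase genes HDAC2 and HDAC1 fell by 0.73 ± 0.13 and 0.32 ± 0.10, each with no overlap. FOXM1, an activator of mitotic genes, was at -0.09 ± 0.11 (adjusted p = 0.56).

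Of 12 mitotic genes that are known to move with CDKN3 in dividing cells, 0 rose and 8 fell with JQ1 (median -0.52). CCNB1, AURKA and HMMR had the largest falls among those with no overlap, at -0.91, -0.74 and -0.56. CCNB1 and CCNB2 are also among the CDK and cyclin partners that fell, so the counts of these lists are not independent. With palbociclib CDC20, an activator of the anaphase-promoting complex, was the only list gene called. It fell by 0.90 ± 0.11 (adjusted p = 0.037), from 154 to 67.2 CPM over 6 and 2 libraries. With the experiment as a term, or without pre-treatment, DMSO or JQ1-B, 0 genes were called for palbociclib in edgeR, so this call was lost. No list gene was called for paclitaxel exposure as an additive term (edgeR).

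**Figure D5:**
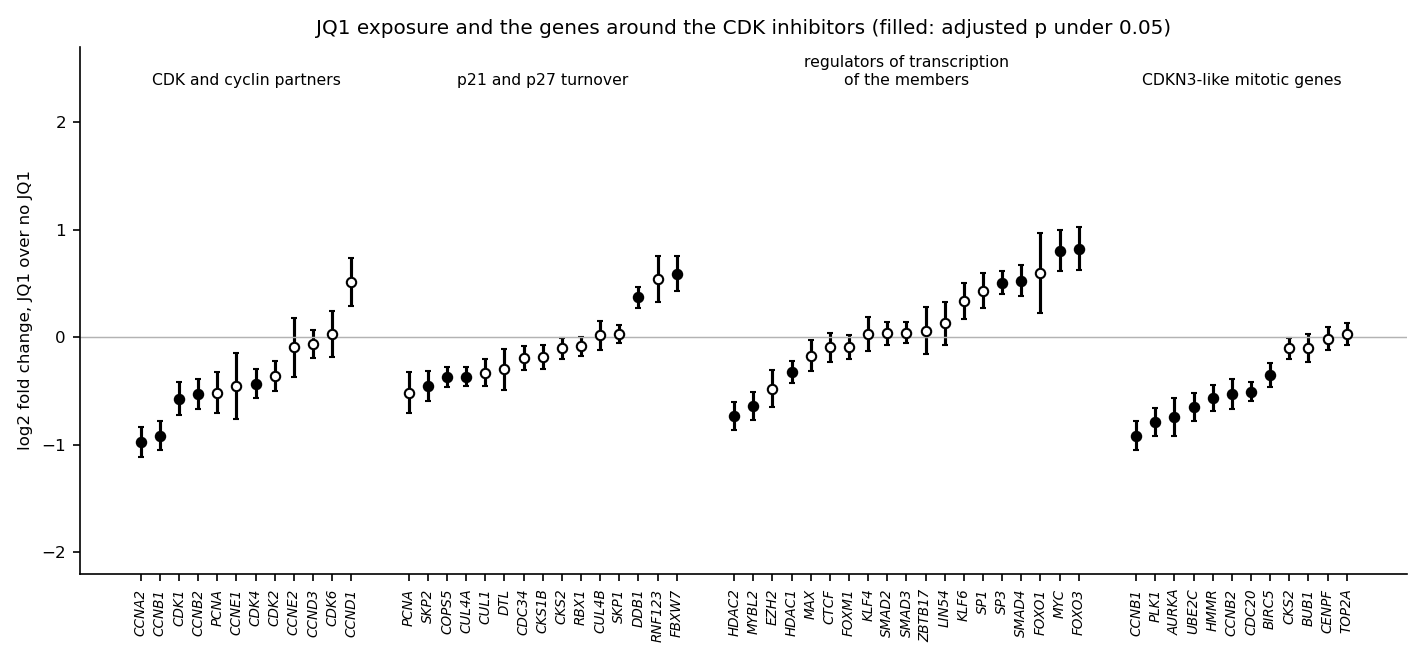
JQ1 log2 fold change (y axis, JQ1 over no JQ1, with standard error) of the tested genes of 4 lists, ordered within each list; filled points had an adjusted p under 0.05. Filled points of the mitotic list all lie below 0 (8 of 12), while the list of regulators of transcription has 4 filled points above 0 and 3 below.

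Genes most like each member are given as a description, over n = 8 libraries that share experiments and drugs. The highest Pearson correlations of log2(CPM + 1) among the 4433 genes that averaged 20 CPM or more were with C6orf226, CDC42BPB and GSTZ1 for CDKN1A (r = 0.98, 0.98 and 0.97) and with COQ2, GNPAT and HMGB1 for CDKN3 (r = 0.97 each). For CDKN2D they were RAB1B, RHOC and ECI1 (0.95, 0.93 and 0.93), and for CDKN2C GDE1, RPSA and HNRNPA1 (0.89, 0.89 and 0.88). For the sparse CDKN1B (THG1L, RPL32 and PRKDC) and CDKN1C (N4BP2L2, GAPDH and RPL41) they were 0.84 to 0.89. Across cells within a library, CDKN3 was most like UBE2S, PTTG1 and H2AFZ, with mean correlations of 0.44, 0.38 and 0.38 over the 8 libraries, and CDKN2D most like TOP2A, HMGB2 and HIST1H4C (0.23, 0.22 and 0.21). No gene reached 0.2 for the other 4 members. Among the members themselves, the highest mean correlation across cells was 0.088, between CDKN2D and CDKN3.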

How the data were processed

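The authors prepared single cells of the 8 SUM159 libraries with 10x Genomics Chromium 3′ chemistry, aligned reads to hg19 and counted UMIs in Cell Ranger, and analysed them in Seurat, per the labels and the methods of the study. The authors deposited raw UMI counts per gene and cell (18955 genes, 5738 cells) and the library of each cell. All 18955 rows name a gene, and each gene has a UMI in at least 3 cells.

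For each library the UMIs of every deposited cell were added up, and the sums were fitted with edgeR 4.0.16 (R 4.3.3), with TMM, a filter of at least 5 CPM in at least 2 libraries, JQ1, palbociclib and paclitaxel exposure as terms (4 residual degrees of freedom), and Benjamini-Hochberg adjustment over 9288 genes. Standard errors are approximate, being derived from the F statistic. The fit was checked on simulated counts, with changes larger than those of the members and in fewer genes than were called for JQ1. That check does not speak for the calls of the members. Cells that passed the study's filter (1 to 15% mitochondrial UMIs, at least 2000 genes; 5575 cells, 97.2%) were thinned to 10000 UMIs each (88 cells with fewer were dropped). Phases were called with the lists of Seurat 5.3.0 across all libraries; for calls within a library, genes in fewer than 3 of its cells were left out. Levels per library used library totals. Exact permutation and sign-flip tests were two-sided. Correlations carry no test.

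Per-library values have 95% Poisson, Clopper-Pearson or exact conditional binomial intervals for counting error. Positions came from GENCODE on GRCh37 and promoters from RefSeq on GRCh38.p14. The text names all 6 members, set list genes, for each list at most 3 called genes in each direction with no overlap between JQ1 libraries and the others, list genes called for the other drugs, and the 3 genes most like each member. TFDP1, FBXW7 and DDB1 were named after their values were seen. The members, lists and named genes were chosen with earlier results of these data known. One list and the genes set for it are not reported here. Alternatives were DESeq2 1.42.0, no TMM, no filter, other cells, phases or libraries, an experiment term and a replicate block.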

Additional observations from a re-analysis of the deposited data

Results flagged for a closer look

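In 48 sets of 4 libraries (each member's level, share of cells, spread and G2/M over G1 ratio, with and without JQ1), 3 had a library far from the others by Dixon's criterion, which flags about 1 in 20 by chance. JQ1+palbociclib had 17.2% of thinned cells with a CDKN2C UMI, below 26.3% to 26.9% in the other JQ1 libraries, and a CDKN2C log2 ratio of G2/M over G1 of 1.37, above 0.95 to 1.01. Palbociclib had a CDKN3 log2 ratio of 1.42, above 0.69 to 0.81 in the other libraries without JQ1. The causes were not tested.

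Genes outside the 6 members also had UMIs in drug-selected libraries. CDKN2A, which encodes the CDK4 and CDK6 inhibitor p16 and the protein ARF, had 62 UMIs in JQ1-B and 26 in JQ1-A, 61 and 15 in the libraries JQ1+palbociclib and palbociclib, and 11 in JQ1+paclitaxel. It had 0 UMIs in pre-treatment and in paclitaxel, which allows up to 0.213 and 0.165 CPM, and 1 UMI in DMSO. At most 5 UMIs were found in a cell, and 106 cells had at least 1. The neighbouring CDKN2B, the p15 gene, had 4, 11 and 9 UMIs in JQ1-A, JQ1-B and JQ1+palbociclib, 2 each in JQ1+paclitaxel and palbociclib, and 0 in pre-treatment, DMSO and paclitaxel. CDKN2B was found in 26 cells, of which 7 also had CDKN2A. These genes were looked at after the members, and no test was made. Whether these UMIs came from SUM159 cells was not tested.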

How the results depend on the processing

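The rise of CDKN1A with JQ1 stayed called under DESeq2, no TMM, no filter, the study's cell filter, removal of cells above the 95th UMI percentile, the experiment term, the JQ1+paclitaxel experiment alone, each phase and each of the 8 left-out libraries (log2 0.86 to 1.36). With a replicate block, 3 pairs matched by partner drug, it had the value 0.98 (adjusted p = 0.077) and CDKN3 -0.31 (adjusted p = 0.18), so both calls were lost, and 361 genes were called. The pairs are matched by drug and not by a shared culture, with 2 residual degrees of freedom. The JQ1+paclitaxel experiment alone left fewer still, so the CDKN1A call there rests on little.

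CDKN3 also lost its JQ1 call with no filter (-0.28), the experiment term (-0.27), the JQ1+paclitaxel experiment alone (-0.29) and 5 left-out libraries (range -0.33 to -0.25), and was at 0.0873 in G2/M cells. Its palbociclib call was lost with the experiment term (-0.69) and 5 left-out libraries (-0.78 to -0.70). Small JQ1 values that changed sign were those of CDKN1B without TMM (-0.10) and of CDKN2C without TMM (-0.12), in G1 cells (-0.30) and when libraries were left out (-0.00766 to 0.293). When libraries were left out, the palbociclib values of CDKN1A ran from -0.59 to 0.43 of CDKN1B from -0.15 to 0.39 and of CDKN2C from -0.75 to -0.0037, and the paclitaxel values of CDKN1A from -0.94 to -0.10 and of CDKN1B from -0.00904 to 0.320.

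Genes called for JQ1 numbered 1603 in G1 cells, 2043 with the experiment term and 1760 to 4190 with a library left out, against 3488. Without JQ1-A, pre-treatment, JQ1-B or DMSO they were 1760, 1970, 2032 and 2269. Palbociclib calls numbered 515 with DESeq2, 205 with no filter, 0 with the experiment term and 0 to 938 with a library left out, against 26. Paclitaxel calls numbered 9, 2 and 0 to 4 with DESeq2, no filter and a library left out, against 0.

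Differences in the share of cells changed sign for CDKN1B (-0.0113 percentage points at 5000 UMIs, -0.784 unthinned, -0.0354 to 0.245 with libraries left out), CDKN2C (0.25 at 5000 UMIs), CDKN2D (-0.79 at 5000 UMIs, -0.24 unthinned, -0.77 to 2.38) and CDKN1C (-0.39 to 0.78). Those in spread changed sign for CDKN2D (0.24 at 5000 UMIs, -0.190 to 0.0461) and CDKN1A (-0.315 to 0.0486). With phases called within each library CDKN1B in G2/M (0.88) and CDKN3 in S (0.46) passed. With a library left out CDKN1B in G2/M ran from 0.68 to 0.96, S over G1 from -0.144 to 0.0161 for CDKN1A and -0.14 to 0.18 for CDKN1B, and the difference with JQ1 in G2/M over G1 from -0.0456 to 0.381 for CDKN1A, -0.0147 to 0.631 for CDKN1B and -0.11 to 0.34 for CDKN2D. The causes of these changes were not tested. With 4 libraries a side, JQ1 differences in share, spread and G2/M over G1 could not pass adjustment unless several members reached the smallest p.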

Other observations

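CDKN1C in JQ1+paclitaxel was looked at beside FABP4, a fatty acid carrier gene that marks a subset of that library, a comparison chosen after the CDKN1C counts were seen. Of 92 cells with at least 5 FABP4 UMIs, 19 had a CDKN1C UMI, or 20.7% (exact 95% interval 12.9 to 30.4%) and 16.4 CPM. Of the 551 other cells of that library, 25 had one, or 4.54% (2.96 to 6.63%) and 3.24 CPM. Median depth was 23787 and 20201 UMIs per cell. In the other libraries cells with 5 or more FABP4 UMIs numbered 1 to 37, and 1 of them, in JQ1-B, had CDKN1C UMIs. Cells of 1 library are not replicates, so no test was made.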
